A study of Mus musculus with 8 samples.

Results

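Immediate early genes and the feedback genes induced with them were examined in colon of germ-free mice colonized with a Candida species. They are the 10 genes Fos, Fosb, Jun, Junb, Atf3, Egr1, Nr4a1, Ier2, Dusp1 and Zfp36, taken as the rows of the deposited count table whose Ensembl identifier carries one of these symbols in a mouse mm10 annotation, out of 52636 identifiers in all. All 10 were found and all 10 passed the filter on low counts. The mice were C57BL/6 wild-type females, 6 weeks old and kept in gnotobiotic isolators. The groups were colon 30 days after gavage with C. tropicalis MYA-3404 (2 libraries), colon 30 days after gavage with C. albicans SC5314 (3 libraries), and colon of control mice at 30 days (3 libraries). The labels number the libraries within a group and do not say whether each is a separate mouse. The p-values of the main test rest only on the spread of libraries within groups, pooled over the 3 groups and moderated by that of other genes. Some of this spread may be technical. The labels give no cage, isolator, hour of collection or time between death and freezing, so effects of these cannot be told apart from the group.

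Immediate early genes are transcribed within minutes of a stimulus, without new protein synthesis, when MAP kinases and other kinases act on factors such as SRF, its ELK partners and CREB already bound to their promoters. Most of their mRNAs and proteins are short-lived, so their level follows the recent past of the tissue, and stretch, wounding, growth factors, cytokines, nerve activity, heat and handling are all known to induce them. Fos, Fosb, Jun, Junb and Atf3 encode bZIP proteins of the AP-1 and ATF families, which bind DNA as dimers. Egr1 encodes a zinc finger transcription factor, Nr4a1 an orphan nuclear receptor, and Ier2 a small nuclear protein. Dusp1 encodes a phosphatase that inactivates MAP kinases, and Zfp36 encodes tristetraprolin, which binds AU-rich elements and speeds the decay of cytokine and immediate early mRNAs.

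The libraries held 16195376 to 19761098 counts. The 10 genes together took 0.105% and 0.0901% of all counts in C. tropicalis libraries 1 and 2, 0.139%, 0.132% and 0.149% in C. albicans libraries 1, 2 and 3, and 0.0952%, 0.103% and 0.122% in control libraries 1, 2 and 3. Every C. albicans library thus gave them a larger share of its reads than any other library. In whole colon a difference in the number of cells of a type and a difference in mRNA per cell cannot be told apart. The colon identity of the tissue was plain: all 10 colon epithelial markers were tested, and their summed level was 20584 to 23165 CPM (counts scaled to a common library size with TMM factors) with C. tropicalis, 18501 to 21350.0 CPM with C. albicans and 17695 to 20018 CPM in control, with no marker at 0.

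The promoters of Fos, Fosb and Atf3 are shown because Fosb and Atf3 went with each other and apart from Fos in the C. tropicalis libraries. Each sequence is the 250 bases before the RefSeq start site on GRCm38.p6, 5′ to 3′ on the strand of the gene, with matches to the motifs searched in capitals.
Fos, chr12:85473640-85473889, plus strand: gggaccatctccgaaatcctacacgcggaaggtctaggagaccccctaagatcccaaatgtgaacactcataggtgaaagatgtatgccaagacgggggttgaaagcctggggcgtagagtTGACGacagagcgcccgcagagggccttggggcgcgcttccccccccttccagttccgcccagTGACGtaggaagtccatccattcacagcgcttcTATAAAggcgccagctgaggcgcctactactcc
Fosb, chr7:19310046-19310295, minus strand: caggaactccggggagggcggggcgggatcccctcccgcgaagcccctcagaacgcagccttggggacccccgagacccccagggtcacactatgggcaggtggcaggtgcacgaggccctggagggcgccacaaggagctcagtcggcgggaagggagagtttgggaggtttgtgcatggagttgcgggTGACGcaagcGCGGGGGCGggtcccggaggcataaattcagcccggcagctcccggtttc
Atf3, chr1:191183334-191183583, minus strand: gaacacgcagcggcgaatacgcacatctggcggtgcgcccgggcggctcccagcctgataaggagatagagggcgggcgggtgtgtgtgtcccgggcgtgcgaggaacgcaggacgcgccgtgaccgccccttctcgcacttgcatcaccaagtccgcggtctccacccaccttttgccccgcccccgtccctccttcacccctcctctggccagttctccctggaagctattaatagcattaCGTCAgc
The motifs, searched on both strands, were the full cAMP response element CRE (TGACGTCA), its core (TGACG, which the full element contains on each strand), the AP-1 site (TGANTCA), the EGR site (GCGNGGGCG), the E-box (CACGTG), the heat shock element core (GAANNTTC), the TATA box (TATAAA) and the CArG box, to which SRF binds. The set of RefSeq promoters used here held a sequence for 8 of the 10 genes, all but Egr1 and Ier2. The CRE core was in 6 of these 8, against 17.8% of all 32851 promoters of the same length, and the EGR site in 3 of 8, against 4.7%. A full CRE was in 1 of 8 (Dusp1; 1.55% of all promoters), a CArG box in 1 (Zfp36; 1.47%), an E-box in 1 (Dusp1; 6.02%), a heat shock element core in 1 (Jun; 6.69%), a TATA box in 1 (Fos; 12.4%) and an AP-1 site in 0 (6.75%). In Fos the CRE core stood at -129 and -66 and the TATA box at -33 from the start site. In Fosb the core stood at -60 and the EGR site at -50, and in Atf3 the core was found at -7. A match describes these letters only, and Fos and Fosb, which differed in the C. tropicalis libraries, both held the CRE core. Bases outside these 250 were not searched, so a motif not found here, such as the CArG box in Fos, may lie elsewhere.

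**Figure D1:**
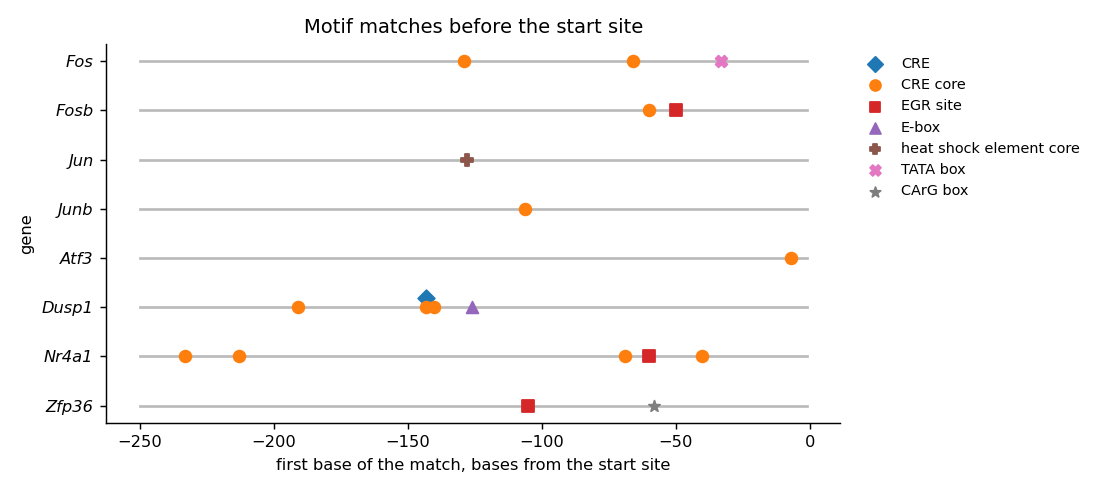
Position of motif matches in the 250 bases before the RefSeq start site of the 8 genes with a promoter sequence; the x axis gives the first base of a match in bases from the start site, each row is a gene and each symbol a motif. Nr4a1 holds 4 CRE cores, Dusp1 a full CRE drawn above its cores, and Fos and Fosb each have a CRE core near the start.

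On GRCm38 (mm10), Fos lies on chromosome 12 (85473890 to 85477273, plus strand) and Fosb on chromosome 7 (19302696 to 19310051, minus strand). Jun lies on chromosome 4 (95049034 to 95052222, minus strand) and Junb on chromosome 8 (84974484 to 84978718, minus strand). Atf3 spans chromosome 1 from 191170296 to 191218039 (minus strand), Egr1 chromosome 18 from 34859823 to 34864984 (plus strand), and Nr4a1 chromosome 15 from 101254269 to 101274795 (plus strand). Ier2 lies on chromosome 8 (84661331 to 84662852, minus strand), Dusp1 on chromosome 17 (26505590 to 26562128, minus strand) and Zfp36 on chromosome 7 (28376784 to 28380253, minus strand). The library kit does not keep the strand, and exons of Junb overlap those of Prdx2 on the other strand by 173 bases (24783 counts for Prdx2 over the 8 libraries, 34766 for Junb). Exons of Dusp1 overlap those of Ergic1 by 11 bases (17234 and 13906 counts). The antisense genes Junos (102 counts, against 30337 for Jun) and Gm44710 (99, against 22987 for Zfp36) were minor, and reads in any of these overlaps cannot be assigned to a strand.

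The levels of the genes were first compared with each other per length, as CPM divided by the kilobases of merged GENCODE exons. In control colon Junb stood highest at 101 ± 16.1 CPM per kilobase and Ier2 next at 91.5 ± 18.4 (SD, n = 3 each), and their ranges over libraries overlapped. Jun followed at 61.3 ± 1.72, Fos at 51.5 ± 10.4 and Zfp36 at 44.1 ± 9.84 CPM per kilobase, each overlapping the next in this order. Dusp1, at 27.1 ± 5.48 CPM per kilobase, lay apart from Zfp36 above it and from Atf3 below it. Atf3 at 15.2 ± 4.41, Nr4a1 at 7.36 ± 3.45 and Egr1 at 7.25 ± 4.39 overlapped in turn, and Fosb was the lowest at 1.73 ± 0.643 CPM per kilobase, below every control value of Egr1. With C. tropicalis the order was Ier2, Junb, Jun, Zfp36, Fos, Atf3, Dusp1, Nr4a1, Fosb and Egr1, so Egr1 at 3.25 ± 1.07 CPM per kilobase (SD, n = 2) was last, although its range overlapped that of Fosb at 4.20 ± 1.05. With C. albicans the order was Ier2, Junb, Fos, Jun, Zfp36, Dusp1, Atf3, Nr4a1, Egr1 and Fosb, with Ier2 at 126 ± 11.6 CPM per kilobase and Fosb at 3.96 ± 1.37 (SD, n = 3 each). Here the ranges of Ier2 and Junb, Fos and Jun, Dusp1 and Atf3, and Atf3 and Nr4a1 overlapped. With C. tropicalis those of Jun and Zfp36, Zfp36 and Fos, and Atf3 and Dusp1 overlapped too, so the order within these pairs is not settled. Merged exons overstate the length of a gene whose main transcript is shorter, which lowers the level given here.

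The first comparison asked how C. albicans colonized colon differed from control colon. All 10 genes had higher estimates with C. albicans, from a log2 fold change of 0.29 (Zfp36) to 1.20 (Fosb), with a median of 0.46. Over all 16107 genes tested the median was -0.02, with 48.2% above 0 and 51.8% below. The 10 genes were chosen with earlier results of these libraries known, so such counts are not independent evidence here or below. None of the 10 passed an adjusted p of 0.05 by edgeR's quasi-likelihood test, which called 0.0435% of all genes tested. An unadjusted p under 0.05 was reached by 6 of the 10, all higher (Fos, Fosb, Jun, Atf3, Ier2 and Nr4a1), where 9.13% of all genes were higher and 6.31% lower at that level. For 4 of the 10 (Fos, Fosb, Jun and Ier2) every C. albicans library lay above every control library, which 9.82% of all genes did, and for 0 every one lay below, which 9.55% did. By limma-voom 0 of the 10 passed; by DESeq2 3 passed, all higher (Fos, Fosb and Nr4a1, adjusted p = 0.00179, 0.0116 and 0.0355), where DESeq2 called 2.75% of genes higher.

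Fos, which encodes a partner of Jun proteins in AP-1, had 193, 200.4 and 214 CPM in C. albicans libraries 1, 2 and 3, against 119.9, 97.3 and 146 CPM in control libraries 1, 2 and 3. The C. albicans libraries were close together and all above the controls. The fitted difference was 1.67-fold (log2 0.74 ± 0.16 SE, 95% interval 0.39 to 1.09, edgeR adjusted p = 0.140). Fosb, a paralog of Fos whose splice form delta-FosB is known in mouse brain for its unusual stability, had 34.5, 18.5 and 21.3 CPM with C. albicans, against 7.08, 10.2 and 15.0 CPM in control. These groups did not overlap either, although the lowest C. albicans library stood only a little above control 3. The difference was 2.29-fold (log2 1.20 ± 0.32, 95% interval 0.47 to 1.92, edgeR adjusted p = 0.203).

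Jun, the main DNA-binding partner of Fos and the only one of the 10 whose control libraries nearly coincided, had 233, 267 and 300.3 CPM with C. albicans, against 193, 202 and 192 CPM in control. Every C. albicans library was above every control (1.36-fold, log2 0.45 ± 0.17, edgeR adjusted p = 0.285). Junb, a Jun protein with weaker activity that often opposes Jun, had 285, 248 and 330.1 CPM, against 193, 266 and 239 CPM in control. The groups overlapped through control 2 (1.24-fold, log2 0.31 ± 0.17, edgeR adjusted p = 0.394). Atf3, a stress-induced ATF family repressor, had 109, 53.4 and 39.7 CPM with C. albicans, against 32.6, 42.2 and 23.2 CPM in control. C. albicans library 1 was far above the other libraries of its group, and library 3 lay within the control range (2.06-fold, log2 1.04 ± 0.36, edgeR adjusted p = 0.264). Without C. albicans library 1 the log2 fold change of Atf3 was 0.55.

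Egr1 had 39.1, 41.6 and 39.3 CPM with C. albicans, against 19.3, 23.1 and 55.1 CPM in control. The C. albicans libraries were nearly equal, while control 3 was the highest of all 8 libraries. The difference was 1.23-fold (log2 0.30 ± 0.36, edgeR adjusted p = 0.690), with a log2 value of 0.92 without control 3 and of 0.03 without control 1. Nr4a1, which neurons, T cells and macrophages are known to induce on activation, had 65.5, 58.5 and 38.9 CPM, against 21.3, 16.6 and 39.5 CPM in control. It overlapped by a narrow margin, C. albicans library 3 standing just under control 3 (2.10-fold, log2 1.07 ± 0.33, edgeR adjusted p = 0.244). Ier2 had 179, 186 and 213 CPM with C. albicans, against 107, 151 and 159.8 CPM in control, without overlap (1.38-fold, log2 0.47 ± 0.17, edgeR adjusted p = 0.264).

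The feedback genes overlapped between the groups. Dusp1 had 91.4, 119.9 and 134 CPM with C. albicans, against 69.6, 94.8 and 105 CPM in control, and C. albicans library 1 lay inside the control range (1.28-fold, log2 0.36 ± 0.19, edgeR adjusted p = 0.378). Zfp36 had 172, 174 and 216 CPM, against 117, 159 and 184 CPM in control, and the groups overlapped through control 3 (1.22-fold, log2 0.29 ± 0.18, edgeR adjusted p = 0.448). Their 95% intervals, -0.07 to 0.78 for Dusp1 and -0.12 to 0.70 for Zfp36 on the log2 scale, included 0 and also values above that of Jun.

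**Figure D2:**
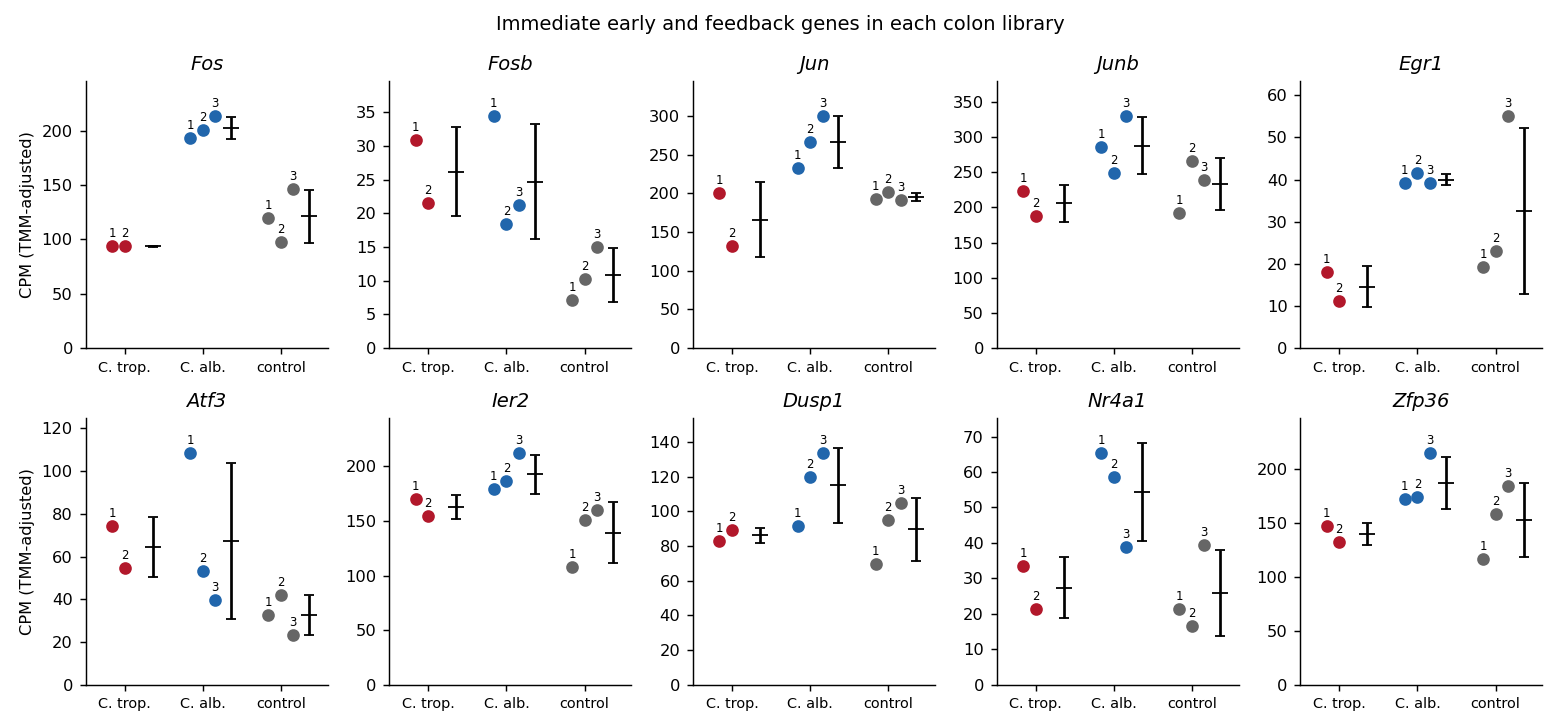
CPM (TMM-adjusted, linear axis from 0) of each of the 10 genes in every library, with C. tropicalis, C. albicans and control from left to right; points are libraries marked with their replicate number, and the bar beside them is the mean ± SD. Fos is near 94 CPM in both C. tropicalis libraries, 193 to 214 CPM in the C. albicans libraries and 97.3 to 146 CPM in control, while Fosb is lowest in control.

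The second comparison set C. tropicalis colonized colon against the same control libraries. The 10 genes did not go one way: 4 had higher estimates (Fosb, Atf3, Ier2 and Nr4a1) and 6 lower (Egr1, Fos, Jun, Junb, Zfp36 and Dusp1), where 47.9% of all genes were higher and 52.1% lower, with a median log2 fold change of -0.10 against -0.02 over all genes. None passed by edgeR, which called 0.031% of genes. At an unadjusted p under 0.05 there were 2 higher (Fosb and Atf3), where 7.33% of all genes were, and 1 lower (Egr1), where 8.05% were. Both C. tropicalis libraries lay above all controls for Fosb and Atf3 and below all controls for Fos and Egr1; over all genes 16.1% lay above in this way and 16.4% below. By limma-voom 0 passed, and by DESeq2 Fosb alone (adjusted p = 0.0198), where DESeq2 called 2.68% of genes, 1.2% as higher. The C. albicans and C. tropicalis comparisons share their controls, so their values are not independent.

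Fosb had 30.9 and 21.6 CPM in C. tropicalis libraries 1 and 2, above the 7.08 to 15.0 CPM of the controls. The difference was 2.43-fold (log2 1.28 ± 0.35, 95% interval 0.49 to 2.06, edgeR adjusted p = 0.206). Atf3 had 74.4 and 54.7 CPM, above the 23.2 to 42.2 CPM of the controls (1.97-fold, log2 0.98 ± 0.40, edgeR adjusted p = 0.298). Egr1 went the other way with 17.97 and 11.2 CPM, under the lowest control at 19.3 CPM (0.449-fold, log2 -1.16 ± 0.42, edgeR adjusted p = 0.272). As control 3 held the highest Egr1 level, the log2 value was -0.54 without it. Fos had 93.5 and 94.2 CPM, just under the lowest control at 97.3 CPM (0.775-fold, log2 -0.37 ± 0.17, 95% interval -0.76 to 0.03, edgeR adjusted p = 0.349).

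For the remaining 6 genes the C. tropicalis and control libraries overlapped. Jun had 200.2 and 132 CPM with C. tropicalis, with library 2 below the 192 to 202 CPM of the controls (log2 -0.24 ± 0.19, edgeR adjusted p = 0.567). Junb had 224 and 187 CPM against 193 to 266 CPM in control, with library 2 just below that range (log2 -0.18 ± 0.19), and Ier2 had 170.4 and 155 CPM against 107 to 159.8 CPM, with library 1 above it (log2 0.22 ± 0.18). The feedback genes Dusp1, with 83.1 and 89.2 CPM against 69.6 to 105 CPM in control (log2 -0.06 ± 0.21), and Zfp36, with 147 and 133 CPM against 117 to 184 CPM (log2 -0.13 ± 0.20), were inside the control range. Nr4a1 had 33.5 and 21.3 CPM against 16.6 to 39.5 CPM in control (log2 0.08 ± 0.37). The edgeR adjusted p of these 6 ran from 0.567 (Jun) to 0.928 (Nr4a1). Their intervals were wide, that of Nr4a1 reaching from -0.75 to 0.92 on the log2 scale, that is, from 0.593-fold to 1.90-fold. Differences anywhere within that range thus remain possible for Nr4a1.

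**Figure D3:**
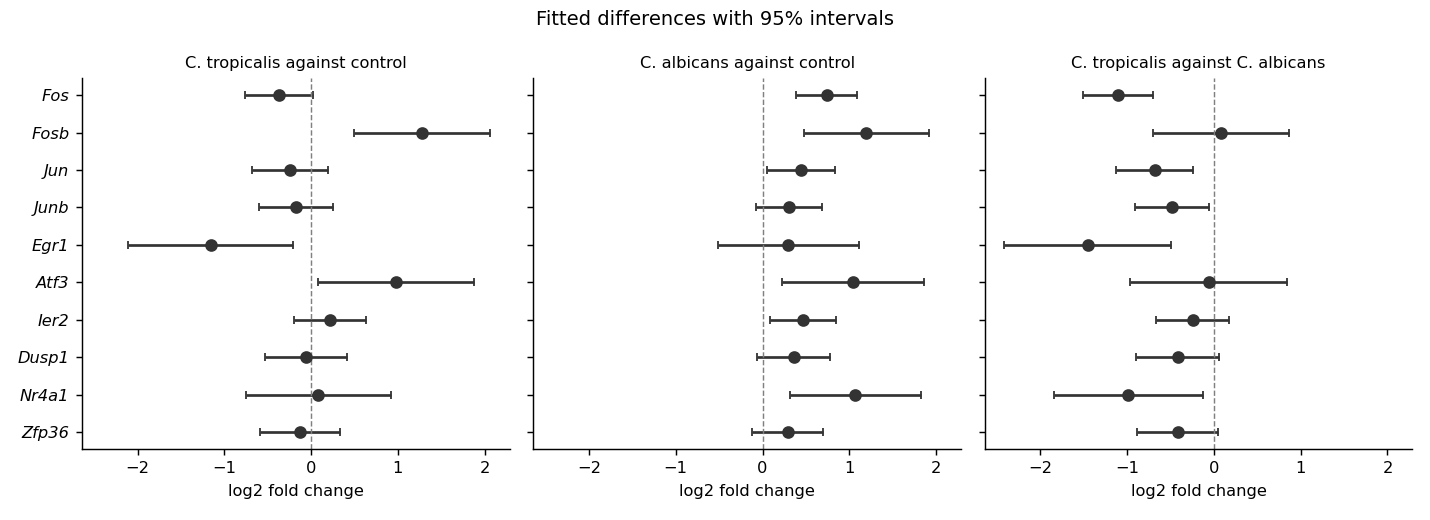
Fitted log2 fold change of each of the 10 genes in the 3 comparisons, 1 panel each on a shared x scale; points are edgeR estimates and bars their 95% intervals, with a dashed line at 0. All 10 points lie right of 0 for C. albicans against control, while for C. tropicalis against C. albicans 9 lie left of it and Fosb, at 0.08, just right.

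The third comparison set C. tropicalis against C. albicans. For 9 of the 10 the estimate was lower with C. tropicalis (median log2 fold change -0.45, against 0.04 over all genes, of which 46.3% were lower and 53.7% higher), and for 8 both C. tropicalis libraries lay below all 3 C. albicans libraries, which 22.4% of all genes did. The exceptions to that separation were Fosb and Atf3. None of the 10 passed by edgeR, which called 0 of 16107 genes (0%) in this comparison and 3744 at an unadjusted p under 0.05. At that level 5 of the 10 were lower (Fos, Jun, Egr1, Nr4a1 and Junb), where 14.4% of all genes were, and 0 were higher, where 8.83% were. By limma-voom 0 of the 10 passed. By DESeq2 Fos (adjusted p = 3.47e-06), Egr1 (0.00475) and Jun (0.0176) passed, all lower, where DESeq2 called 8.68% of genes lower and 2.26% higher.

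Fos, at 93.5 and 94.2 CPM with C. tropicalis, stood under the 193 to 214 CPM of the C. albicans libraries by a wide margin (0.463-fold, log2 -1.11 ± 0.18, 95% interval -1.51 to -0.70, edgeR adjusted p = 0.0646). By p it ranked 23 among the 16107 genes. Its edgeR adjusted p turned on the libraries fitted. It was 0.314 without C. tropicalis library 1 and 0.320 without library 2, 0.0204, 0.144 and 0.171 without C. albicans library 1, 2 or 3, and 0.0382, 0.114 and 0.0146 without control 1, 2 or 3, so it passed in 3 of 8 cases. With the replicate number as a block it was 0.133, and with only these 2 groups fitted 0.0111. The log2 fold change itself lay between -1.17 and -1.10 with each library left out. Egr1, at 17.97 and 11.2 CPM against 39.1 to 41.6 CPM, had the largest fold (0.365-fold, log2 -1.46 ± 0.43, edgeR adjusted p = 0.0938). Its edgeR adjusted p was 0.314 and 0.401 without C. tropicalis library 1 or 2, 0.0856, 0.212 and 0.198 without C. albicans library 1, 2 or 3, and 0.0495, 0.125 and 0.0208 without control 1, 2 or 3, so it passed in 2 of 8 cases. It was 0.156 with the replicate number as a block and 0.0225 with only these 2 groups fitted. Jun, at 200.2 and 132 CPM against 233 to 300.3 CPM, had 0.623-fold (log2 -0.68 ± 0.20, edgeR adjusted p = 0.0910), and its log2 value was -0.41 without C. tropicalis library 2. Nr4a1, at 33.5 and 21.3 CPM against 38.9 to 65.5 CPM, had 0.505-fold (log2 -0.99 ± 0.38, edgeR adjusted p = 0.167).

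Junb, Ier2, Dusp1 and Zfp36 were lower with C. tropicalis by log2 values from -0.24 (Ier2) to -0.49 (Junb), with edgeR adjusted p from 0.171 (Junb) to 0.477 (Ier2). Their libraries did not overlap between the species, though for Dusp1 the gap was small, with 89.2 CPM in C. tropicalis library 2 and 91.4 CPM in C. albicans library 1. Fosb (1.06-fold, log2 0.08 ± 0.35, 95% interval -0.70 to 0.87) and Atf3 (0.959-fold, log2 -0.06 ± 0.40, 95% interval -0.97 to 0.84) had similar means in both colonized groups, and their intervals leave room for differences of more than 1.5-fold either way.

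Markers of several cell types moved with the species. The summed level of the 10 smooth muscle markers was 3859 to 4913 CPM with C. tropicalis, 9898 to 28558 CPM with C. albicans and 6764 to 13387 CPM in control. The 8 markers of enteric neurons and glia gave 34.2 to 52.8 CPM with C. tropicalis, 75.5 to 178 CPM with C. albicans and 66.7 to 90.2 CPM in control. The 7 endothelial markers gave 136 to 147 CPM, 189 to 262 CPM and 153 to 189 CPM in the same order, and the 7 fibroblast markers 924 to 1077 CPM, 1334 to 2153 CPM and 1186 to 1471 CPM. The 8 markers of neutrophils and mast cells, of which 4 were tested, gave 27.5 to 30.7 CPM with C. tropicalis, 62.4 to 97.9 CPM with C. albicans and 43.3 to 100.4 CPM in control. The 6 markers of mesenteric fat gave 11.9 to 37.7 CPM with C. tropicalis, 53.6 to 173 CPM with C. albicans and 29.8 to 172 CPM in control. In all 6 of these lists the C. tropicalis libraries lay below the C. albicans libraries, no marker was at 0 in all libraries, and none passed against control. The smooth muscle markers separated the C. tropicalis libraries from all others, so as a covariate they cannot be told apart from that group. With this covariate, Fos had a log2 fold change of -1.30 and Egr1 of -2.53 for C. tropicalis against C. albicans (edgeR adjusted p = 0.772 for both). Fosb had -1.29 in place of 0.08 in that comparison. These values therefore do not show how much of a difference goes with the markers. Against control the same covariate gave Fosb 1.73 with C. albicans (edgeR adjusted p = 0.0166) and 0.44 with C. tropicalis. The part of the other lists in the results was not tested. B cell markers separated the species the other way, with 67.3 to 94.5 CPM with C. tropicalis, 11.4 to 63.9 CPM with C. albicans and 17.3 to 278 CPM in control. Myeloid markers (332 to 394 CPM with C. tropicalis, 249 to 366 CPM with C. albicans and 212 to 463 CPM in control) and T cell markers (14.5 to 15.7, 13.5 to 20.0 and 9.76 to 33.8 CPM in the same order) overlapped between the species.

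The balance between related genes was then read as a ratio of raw reads within a library, which needs no scaling between libraries; these ratios were chosen after the values above had been seen. For each 100 Fos reads there were 33.0 and 22.9 Fosb reads in C. tropicalis libraries 1 and 2, 17.8, 9.21 and 9.95 in C. albicans libraries 1, 2 and 3, and 5.90, 10.5 and 10.3 in control libraries 1, 2 and 3. Both C. tropicalis libraries thus held more Fosb relative to Fos than any other library. The geometric mean ratio was 3.19-fold higher with C. tropicalis than in control (exact permutation test, two-sided, p = 0.1, the smallest that 10 splits allow), 2.33-fold higher with C. tropicalis than with C. albicans (p = 0.2), and 1.37-fold higher with C. albicans than in control (p = 0.6, where 20 splits allow 0.1). Atf3 reads for each 100 Fos reads were 79.5 and 58.1 with C. tropicalis, 56.2, 26.7 and 18.6 with C. albicans, and 27.2, 43.4 and 15.9 in control, a 2.56-fold higher ratio with C. tropicalis than in control (exact permutation test, p = 0.2). The ratio of Junb to Jun showed no such order: it was 1.07-fold with C. tropicalis and 0.915-fold with C. albicans relative to control, and the libraries of the 3 groups overlapped (exact permutation test, p = 0.7 and 0.5). Other ratios also separated C. tropicalis from control: Atf3 to Jun was 2.42-fold and Egr1 to Nr4a1 0.440-fold (exact permutation test, p = 0.1 each). With C. albicans both overlapped control (exact permutation test, p = 0.5 and 0.2). None of these ratios could pass 0.05 with this number of libraries.

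**Figure D4:**
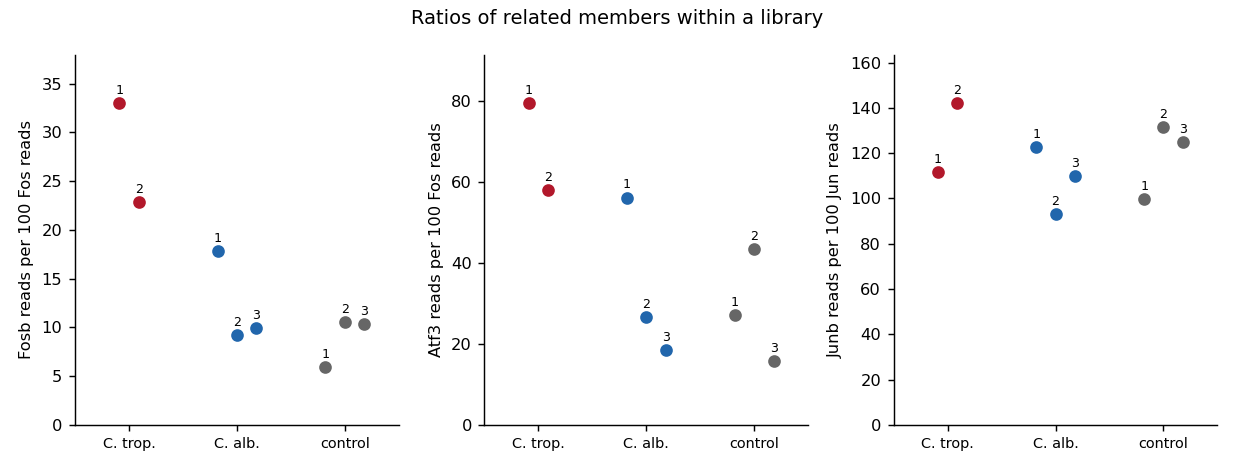
Reads of one gene for each 100 reads of a related gene in the same library (linear axis from 0), with C. tropicalis, C. albicans and control from left to right and points numbered by replicate. The C. tropicalis libraries are highest for Fosb against Fos (33.0 and 22.9) and for Atf3 against Fos (79.5 and 58.1), and the groups overlap for Junb against Jun.

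Among themselves the genes shared highs and lows to differing degrees, given here as a description over 8 libraries that share their groups. Dusp1 and Zfp36, the feedback pair, had a Pearson correlation of log2 CPM of 0.91 (Spearman 0.93; 0.67 without the 2 libraries farthest from the median of Dusp1), and Ier2 and Zfp36 0.86 (Spearman 0.76; 0.42 without the 2 farthest). For deviations from group means the correlation was 0.98 for Ier2 and Zfp36 and 0.84 for Dusp1 and Zfp36. By the same measure it was 0.67 for Fos and Egr1, 0.54 for Fosb and Ier2, and 0.34 for Fosb and Atf3. Fos went about equally with Egr1 (0.81, Spearman 0.79), Nr4a1 (0.80, Spearman 0.67) and Jun (0.80, Spearman 0.71), and little with its paralog Fosb (0.26, Spearman -0.05). For deviations from group means Fos had 0.61 with Nr4a1 and 0.0047 with Jun. Fosb went with Atf3 (0.74; Spearman 0.83) and Ier2 (0.74; Spearman 0.57), while Atf3 and Egr1 had -0.21 (Spearman -0.45). Among the 10, Atf3 was the member farthest from each of the others except Fosb, and from the shared profile (0.31, where Zfp36 had 0.90).

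**Figure D5:**
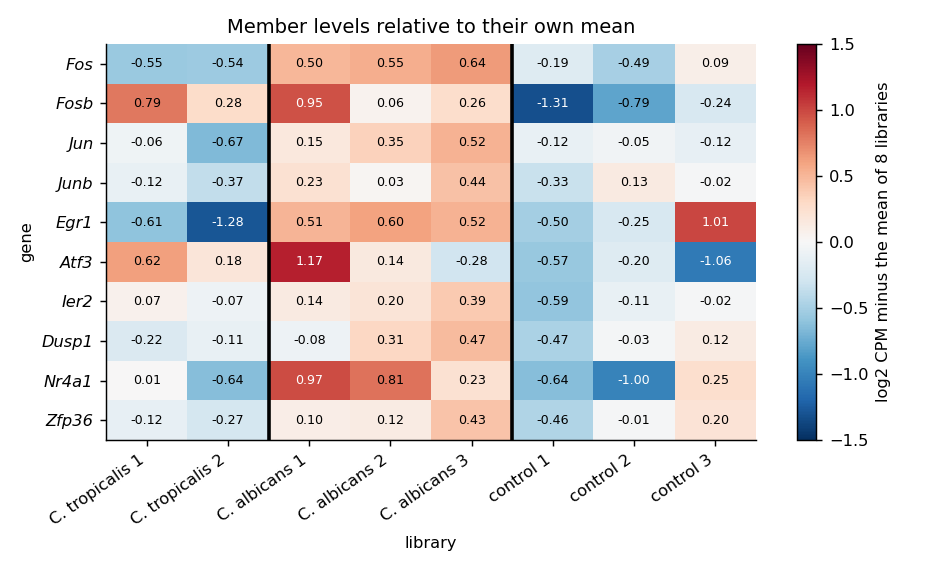
Level of each gene (rows) in each library (columns, grouped as C. tropicalis, C. albicans and control) as log2 CPM minus the mean of the 8 libraries, printed in each cell and coloured from blue (below) to red (above). C. albicans columns are mostly above 0, control 1 is below 0 for all 10 genes, and Fosb and Atf3 are above 0 in the C. tropicalis columns where Fos and Egr1 are below.

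The genes whose profile was most like the mean profile of the 10, out of 13220 compared, were Ttyh3 (Pearson 0.98 over 8 libraries, Spearman 0.95), Abhd16a (0.97 and 0.95), Smo (0.96 and 0.88), Tmem8 (0.95 and 0.95), Traf7 (0.95 and 0.90), Foxd2 (0.95 and 0.88), Amigo3 (0.95 and 0.90) and Sorbs3 (0.95 and 0.90). Without the 2 libraries farthest from the median of the profile their Pearson values ran from 0.90 (Amigo3) to 0.98 (Tmem8). None of these 8 is a classical immediate early gene. They were picked for this likeness among all genes compared, so the values carry no p.

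Other genes of the same response were read from lists, against control. Of all genes tested, 48.2% had higher estimates with C. albicans and 47.9% with C. tropicalis. At an unadjusted p under 0.05, 9.13% of all genes were higher and 6.31% lower with C. albicans. With C. tropicalis these shares were 7.33% and 8.05%. Of 15 other AP-1 family genes, all tested, 14 had higher estimates with C. albicans than in control and 12 with C. tropicalis (median log2 fold change 0.27 and 0.17), and 0 passed by edgeR in either comparison, with 6 and 3 at an unadjusted p under 0.05, all higher. The smallest p with C. albicans was that of Fosl1, which encodes the Fos-related protein FRA-1: it had 5.11, 15.9 and 8.04 CPM with C. albicans, against 1.83, 1.85 and 1.93 CPM in control. Every C. albicans library was above the tightly grouped controls (5.17-fold, log2 2.37 ± 0.43, edgeR adjusted p = 0.111). The small Maf gene Maff had 70.7, 74.7 and 66.9 CPM with C. albicans, against 34.9, 43.6 and 38.4 CPM in control (1.82-fold, edgeR adjusted p = 0.120), and 82.6 and 54.6 CPM with C. tropicalis (1.76-fold against control, edgeR adjusted p = 0.164). The others with the smallest p were Jdp2 (log2 0.89) with C. albicans, and Batf2 (0.92) and Mafg (0.54) with C. tropicalis, with edgeR adjusted p from 0.183 to 0.265.

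Of 21 other immediate early transcription factors 20 were tested (Egr4 was not), with 13 higher for C. albicans and 11 for C. tropicalis against control (median log2 fold change 0.38 and 0.10) and 0 past the threshold by edgeR. At an unadjusted p under 0.05 there were 7 higher and 0 lower with C. albicans, and 3 higher and 2 lower with C. tropicalis. Srf, the factor that binds the CArG box and is itself an early response gene, had 219.8, 365 and 299 CPM with C. albicans, against 156, 163 and 166 CPM in control, without overlap (1.83-fold, edgeR adjusted p = 0.150). Bhlhe40, a clock-linked repressor, had 251, 241 and 219 CPM with C. albicans, against 120.2, 147 and 141 CPM in control (1.74-fold, edgeR adjusted p = 0.0914), and 244 and 208 CPM with C. tropicalis (1.66-fold against control, edgeR adjusted p = 0.137). Klf4, a zinc finger factor of differentiated colon epithelium, was 1.78-fold with C. albicans (edgeR adjusted p = 0.129) and 1.52-fold with C. tropicalis (0.236). Ier5 went the other way with C. tropicalis (0.716-fold, edgeR adjusted p = 0.288).

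Of 30 other feedback regulators, all tested, 25 had higher estimates with C. albicans and 22 with C. tropicalis (median 0.45 and 0.15), and 0 passed by edgeR. With C. albicans 14 had all libraries above control and 1 below, against 9.82% and 9.55% of all genes. With C. tropicalis 10 had all above and 3 below, against 16.1% and 16.4%. At an unadjusted p under 0.05 there were 14 higher and 1 lower with C. albicans, and 8 higher and 1 lower with C. tropicalis. Zc3h12a, which encodes the ribonuclease Regnase-1, had 44.1, 38.5 and 49.96 CPM with C. albicans, against 18.1, 18.2 and 25.1 CPM in control (2.16-fold, log2 1.11 ± 0.17, edgeR adjusted p = 0.0711). Dusp8, a phosphatase of the stress-activated MAP kinases, had 57.1, 66.6 and 51.5 CPM, against 30.1, 29.0 and 19.3 CPM in control (2.23-fold, edgeR adjusted p = 0.114). Btg1, an antiproliferative gene, was lower: it had 190.2, 151 and 159.9 CPM with C. albicans, against 271, 320.3 and 326 CPM in control (0.546-fold, edgeR adjusted p = 0.0731), and 203 and 211 CPM with C. tropicalis (0.677-fold against control, edgeR adjusted p = 0.213). Trib1 (1.98-fold) and Dusp5 (1.48-fold), with edgeR adjusted p of 0.211 and 0.244, were the others with the smallest p for C. tropicalis.

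The kinases and factors that induce these genes formed a further list, without Srf, which was counted above. Of 22 listed and tested, 9 had higher and 13 lower estimates with C. albicans, and 13 higher and 9 lower with C. tropicalis (median log2 fold change -0.07 and 0.03). By edgeR 0 passed. At an unadjusted p under 0.05 there were 1 higher and 2 lower with C. albicans, and 0 higher and 1 lower with C. tropicalis. All C. albicans libraries lay above control for 2 and below for 6, against 9.82% and 9.55% of all genes. For C. tropicalis these counts were 4 and 1, against 16.1% and 16.4%. The named genes with C. albicans were Mapk9 (0.809-fold), Rps6ka4 (1.29-fold) and Elk3 (0.749-fold), and with C. tropicalis Elk3 (0.646-fold), Mapk14 (1.24-fold) and Map2k2 (1.30-fold), with edgeR adjusted p from 0.253 to 0.359. Of 24 delayed and secreted early response genes 21 were tested (Cxcl1, Cxcl2 and Il6 were not), with 17 higher for C. albicans and 11 for C. tropicalis (median 0.53 and 0.26) and 0 past the threshold by edgeR; at an unadjusted p under 0.05 there were 8 higher and 3 lower, and 3 higher and 3 lower. Hbegf, a ligand of the EGF receptor, had 25.9, 29.6 and 28.4 CPM with C. albicans, against 16.8, 14.5 and 11.98 CPM in control (1.94-fold, edgeR adjusted p = 0.109). Phlda1 (1.99-fold) and Sgk1 (0.646-fold) with C. albicans, and Mcl1 (1.497-fold), Areg (2.33-fold) and Hmox1 (1.72-fold) with C. tropicalis, had edgeR adjusted p from 0.151 to 0.265.

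Heat shock genes, which handling and heat also induce, were higher in 13 of 13 cases with C. albicans and 12 of 13 with C. tropicalis (median log2 fold change 0.95 and 1.10), and 1 rose past the threshold in each comparison: Hsph1 with C. albicans (5.57-fold, edgeR adjusted p = 0.0227) and Hspa8 with C. tropicalis (3.47-fold, edgeR adjusted p = 0.0409). Others with the smallest p were Hspa1a (10.2-fold) and Hspa1b (10.0-fold), which share near-identical sequence so that their split is uncertain, with C. albicans, and Hsph1 (4.58-fold) and Chordc1 (2.14-fold) with C. tropicalis, with edgeR adjusted p from 0.0711 to 0.104. Over all genes edgeR called 0.0435% with C. albicans and 0.031% with C. tropicalis. At an unadjusted p under 0.05, 9 heat shock genes were higher and 0 lower with C. albicans, and 9 higher and 1 lower with C. tropicalis. Of 12 glucocorticoid-responsive genes 11 were tested (Mt2 was not), with 8 higher for C. albicans and 4 for C. tropicalis (median 0.23 and -0.16). By edgeR 1 passed with C. albicans and 0 with C. tropicalis. At an unadjusted p under 0.05, 2 were higher and 2 lower with C. albicans, and 2 higher and 1 lower with C. tropicalis. In that list Per1, which is also a clock gene, rose with C. albicans (2.48-fold, edgeR adjusted p = 0.0222) and had 1.74-fold with C. tropicalis (0.135), while Tsc22d3 had 1.55-fold (0.242) and Sgk1 0.701-fold (0.272) with C. tropicalis, and Sgk1 and Ddit4 had 0.646-fold and 0.699-fold with C. albicans (0.203 each). The 10 genes, these lists and the cell type markers were all chosen with earlier results of the same libraries known, so their direction is not independent evidence.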

How the data were processed

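The deposited table holds counts, whole numbers of reads per Ensembl gene identifier with no normalization, for 8 libraries of colon RNA made with a NEBNext Ultra kit. Per the submitters' processing notes, TopHat2 2.0.12, HTSeq (written as 6.1), DESeq 1.18.0 and build mm10 were used; no source used here gives the annotation release, the strand setting or the filters. Symbols and exon lengths came from GENCODE M21 on GRCm38, which matched 52489 of 52636 identifiers (the other 147 held 0.00317% of counts); older symbols were resolved through RefSeq synonyms, and promoters are from RefSeq (GRCm38.p6).

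For testing, edgeR 4.0.16 (R 4.3.3; TMM, filterByExpr, quasi-likelihood F-test) was fitted once to the 8 libraries and 16107 genes, with Benjamini-Hochberg adjustment over all of them and a threshold of 0.05. Degrees of freedom were 5 (residual) and 4.05 (prior), and the common biological variation was 0.243. An SE is the log2 fold change divided by the square root of F; 95% intervals use the t quantile. Correlations use log2 CPM with a prior count of 2. Alternatives used DESeq2 1.42.0, limma 3.58.1 (voom), other scaling and filters, the 2 groups alone, the replicate number as a block, a smooth muscle covariate and each library left out. The test was checked on simulated counts. Within groups, every pair of libraries differed by more than sampling noise. Figures were drawn with matplotlib 3.10.9.

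All 10 members are named whatever their values; each other list names the 3 genes with the smallest p per comparison with control, and the 8 genes most like the members need a mean CPM of at least 1. The members and lists were chosen with earlier results of these data known.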

Additional observations from a re-analysis of the deposited data

Results flagged for a closer look

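Fos was above every control in all 3 C. albicans libraries and below every control in both C. tropicalis libraries, so the 2 colonized groups lay on opposite sides of the same controls. The difference between them, C. tropicalis against C. albicans, was -1.11 on the log2 scale (95% interval -1.51 to -0.70), and by edgeR it did not pass over all genes (adjusted p = 0.0646). The margin to control was uneven, with 93.5 and 94.2 CPM with C. tropicalis against a lowest control of 97.3 CPM, and a lowest C. albicans library of 193 CPM against a highest control of 146 CPM. No group holds 4 libraries, so single libraries could not be screened for outliers.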

How the results depend on the processing

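Over 17 alternatives, all 10 genes kept a positive estimate for C. albicans against control, and the median log2 fold change ran from 0.37 (without control 1) to 0.71 (without control 3). For C. tropicalis against control it ran from -0.29 to 0.05, and for C. tropicalis against C. albicans from -0.83 to -0.35; the smooth muscle covariate gave the value farthest from 0 in both. The count of members past the threshold was 0 in all 3 comparisons by edgeR as reported, and stayed 0 by limma-voom, with the other scalings and with a filter of 1 CPM. With DESeq2 it was 3 for C. albicans and 1 for C. tropicalis, each against control, and 3 between the species, and 1 with the smooth muscle covariate for C. albicans against control (Fosb). For C. tropicalis against C. albicans it was also 2 (Fos and Egr1) with no filter on low counts and 2 with only the 2 groups fitted, and leaving out 1 library gave 0 to 2. The causes were not tested. The number of genes called over the whole table moved as widely, for example from 0 to 1753 with DESeq2 in that comparison.

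Signs turned only where estimates were small. For C. tropicalis against control, Dusp1 was 0.0832 and Zfp36 0.0156 with the replicate block, Nr4a1 -0.39 with the smooth muscle covariate, and leaving out 1 library gave values from -0.27 to 0.53 for Nr4a1, from -0.57 to 0.0369 for Jun, from -0.21 to 0.0673 for Dusp1 and from -0.29 to 0.0244 for Zfp36. For C. tropicalis against C. albicans, Atf3 was 0.0557 with limma-voom and Fosb -1.29 with the smooth muscle covariate, and leaving out 1 library gave -0.35 to 0.44 for Atf3 and -0.20 to 0.37 for Fosb. Deviations from group means had correlations from -0.39 to 0.16 for libraries with the same number, and from -0.29 to 0.36 for those with different numbers. Deviations within a group sum to 0, so with 2 or 3 libraries this check cannot decide whether the numbers pair them. With the replicate block 0 of the 10 genes passed in each comparison, and 0 genes of the whole table. The edgeR test was also run on simulated counts of this size, with 200 genes changed. For C. albicans it found 50% of those set 2-fold apart from control and 86% at 4-fold, with 12 false calls. For C. tropicalis these values were 25%, 75% and 4. In the real C. albicans libraries Hspa1a (10.2-fold, edgeR adjusted p = 0.0711) and Fosl1 (5.17-fold, 0.111) did not pass. Hsph1 (5.57-fold, 0.0227) did. The simulated rates therefore may not carry over to these libraries. Most estimates of the 10 genes were under 2-fold, and whether real differences among them went uncalled was not tested.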
